A study of Drosophila mettleri with 18 samples.

Results

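Larvae of the cactus fly Drosophila mettleri from Santa Catalina Island were compared on saguaro and on lab food. The comparison used 6 of the 18 libraries of the series, chosen by population and food as labelled: 3 saguaro libraries and 3 lab food libraries. The same 3 stocks (C-M, C-7 and C-9) were reared on both foods, so each strain gave 1 library per food. Lab food was Drosophila 4-24 Instant medium and saguaro was saguaro cactus. Every library was made from a single pool of 10 larvae that were 8 days old, and was spread over 2 sequencing lanes. The strains are separate fly stocks, so the spread between libraries holds differences between strains together with differences between pools. No genotype or transgene is given in the labels. The remaining libraries, used here for comparison, came from the same strains on coastal prickly pear and from 3 Sonoran stocks (T-22, T-27 and T-28) on saguaro, prickly pear and lab food.

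Drosophila mettleri is a desert species whose larvae feed in soil soaked by the juices of rotting cacti. Saguaro is a columnar cactus of the Sonoran Desert, and its tissue contains alkaloids that many insects do not tolerate. It does not grow on Santa Catalina Island, where the fly uses prickly pear. Larvae that feed on cactus rots meet plant toxins with detoxifying enzymes, among them cytochrome P450s, glutathione transferases and glycosyltransferases. The comparison therefore places an island population on the cactus used by its mainland relatives. The deposited table names features by their place in a de novo assembly and does not pair them with gene names, so no function can be attached to any of them. For the same reason at most 2 features that rose and 2 that fell are named.

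The C-M saguaro library stood apart from the other 17. It held 11886 features with at least 1 count, whereas the other libraries held 13758 to 14725, although its depth of 13784441 counts was ordinary: the 6 libraries ranged from 13449136 to 15418605 counts. With every library thinned to 6769906 counts, 8174 features kept 10 or more counts in the C-M saguaro library, 10131 in C-7 saguaro and 9063 in C-9 saguaro, against 10417, 10600 and 9191 in the lab food libraries of C-M, C-7 and C-9. All 3 strains had fewer such features on saguaro than on lab food, but the gap was large in C-M and small in C-9. The 100 most abundant features of a library took 57.9% of the counts in C-M saguaro, and 51.8% in each of the C-7 and C-9 saguaro libraries, against 47.1%, 47.6% and 51.9% in the C-M, C-7 and C-9 lab food libraries. Of the 12514 features that passed the filter on low counts, 3527, or 28.2%, had their lowest level of all 18 libraries in C-M saguaro. The next highest share was 15.6%, in C-9 on prickly pear, and every other library had at most 5.67%. What set the C-M saguaro library apart was not tested, and the main results that rest on it are given with and without it.

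**Figure D1:**
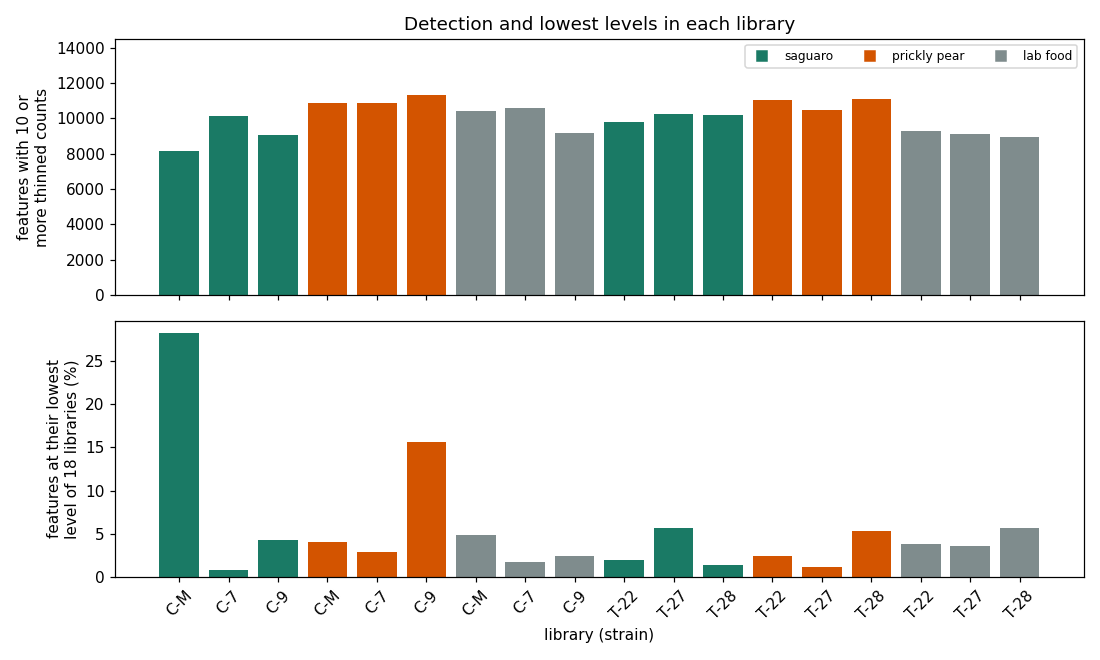
Upper panel: number of features with 10 or more counts after thinning each library to the same total. Lower panel: percent of the 12514 tested features whose level was lowest, without a tie, in that library. Each bar is 1 library, labelled by strain and coloured by food, Santa Catalina strains on the left. C-M saguaro has the fewest detected features, 8174, and the largest share of lowest levels, 28.2%.

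Few transcripts changed on saguaro at the threshold used. 5 features rose and 2 fell on saguaro against lab food among the 12514 tested, which is 0.0400% and 0.0160%, or 0.0559% in all (edgeR quasi-likelihood test on all 18 libraries, Benjamini-Hochberg adjusted p below 0.05). With RLE size factors in place of TMM there were 0 calls and 996 features at an unadjusted p under 0.05 (edgeR), the 7 having an adjusted p of 0.0537 to 0.0590. With library totals alone 4 rose and 3 fell, 5 of them among the 7. At an unadjusted p under 0.05 there were 497 features higher and 465 lower on saguaro, 7.69% of those tested. The median log2 fold change over all features was -0.04. The smallest adjusted p was 0.0389, so every call lay close to the threshold. With strain entered as a replicate block, which uses the pairing of the foods within strains, none of the 7 was called (adjusted p between 0.0576 and 0.101, edgeR) and 1 other feature was. Without the C-M saguaro library there were 0 calls and 542 features at an unadjusted p under 0.05 (edgeR), the 7 having an adjusted p between 0.174 and 0.202. Without the C-7 saguaro library there were 290 calls, 52 higher and 238 lower. There were also 0 calls without the C-9 saguaro library and without the C-M or the C-9 lab food library (edgeR), and 1 call without the C-7 lab food library.

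The largest rise among the called features was that of comp34213_c0. Its level was 412 CPM (counts scaled to a common library size with TMM factors) in C-M, 188 CPM in C-7 and 259 CPM in C-9 on saguaro, against 44.4, 20.1 and 47.4 CPM in the same strains on lab food. Every saguaro library lay above every lab food library, and within each strain the saguaro library was several times higher. The mean was 286 ± 115 CPM on saguaro and 37.3 ± 14.9 CPM on lab food (SD, n = 3 each). Its log2 fold change was 2.94 (SE 0.45), with an adjusted p of 0.0389 (edgeR). Without the C-M saguaro library the log2 fold change was 2.58 and the call was lost (adjusted p = 0.174, edgeR).

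comp34213_c1 belongs to the same assembly component and followed it. It was at 118, 48.6 and 72.7 CPM in C-M, C-7 and C-9 on saguaro, against 12.1, 6.30 and 15.6 CPM on lab food. The libraries of the 2 foods did not overlap and the order of the strains on each food was that of comp34213_c0. The log2 fold change was 2.82 (SE 0.44, adjusted p = 0.0389, edgeR). The counts of comp34213_c1 were 0.285, 0.259 and 0.281 times those of comp34213_c0 in the C-M, C-7 and C-9 saguaro libraries, against 0.272, 0.313 and 0.329 times in the lab food libraries. The 2 features thus kept nearly the same proportion in all 6 libraries. They may be pieces or copies of 1 gene between which reads were divided, in which case they are not separate results.

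The 3 other called features that rose are left unnamed. The first was at 285, 120 and 172 CPM in C-M, C-7 and C-9 on saguaro, against 39.9, 47.5 and 69.6 CPM on lab food. The log2 fold change was 1.88 (SE 0.30) and the adjusted p was 0.0389 (edgeR). Its rise was large in C-M, with a log2 difference of 2.83, and similar in the remaining strains, at 1.34 in C-7 and 1.30 in C-9. The second was at 282, 209 and 258 CPM on saguaro against 121, 107 and 83.7 CPM on lab food, and the third at 181, 129 and 259 CPM on saguaro against 86.7, 74.7 and 78.9 CPM on lab food, in the same order of strains. For both of these the largest difference was in C-9, not in C-M. Their log2 fold changes were 1.27 (SE 0.21) and 1.24 (SE 0.21), with adjusted p of 0.0404 and 0.0439 (edgeR). The second has a partner feature in its component, for which the log2 fold change was 0.29 (SE 0.15, adjusted p = 0.631, edgeR), so the rise was not shared by both features of that component at this threshold. The difference between the partners was not tested.

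comp37436_c0 showed the largest fall among the called features. It was at 20.6, 45.9 and 36.1 CPM in C-M, C-7 and C-9 on saguaro, against 325, 132 and 349 CPM on lab food. Within strains the log2 difference was -3.97 in C-M, -1.52 in C-7 and -3.27 in C-9, so the fall was smallest in the strain with the lowest lab food level. The log2 fold change was -2.97 (SE 0.47, adjusted p = 0.0389, edgeR). comp39042_c0 was the most even of the called features: 52.9, 58.0 and 55.3 CPM on saguaro against 120, 112 and 134 CPM on lab food, again in the order C-M, C-7 and C-9. The foods did not overlap and the libraries of each food were close together. Its fall was 2.20-fold, or -1.14 on the log2 scale (SE 0.17, adjusted p = 0.0389, edgeR).

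**Figure D2:**
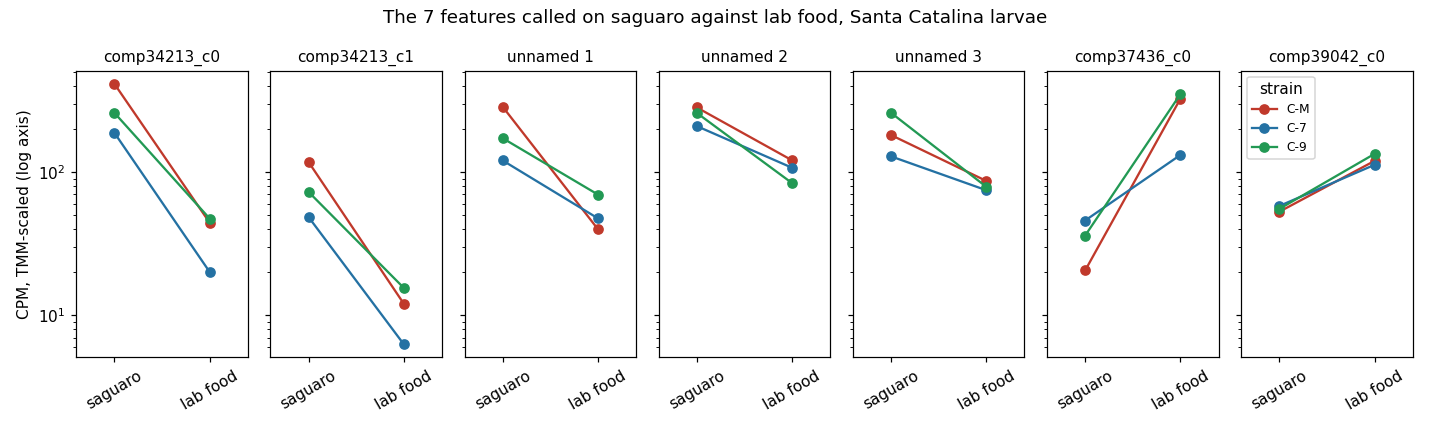
Level of the 7 called features in the 3 saguaro and 3 lab food libraries of Santa Catalina larvae, in TMM-scaled CPM on a log axis. Each point is 1 library and each line joins the libraries of a strain. In every panel all 3 strains move in the same direction and the foods do not overlap; the unnamed features follow the order of the text.

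All 7 called features were without overlap between the foods, but this is a common property: 560 features, 4.47% of those tested, lay higher in every saguaro library than in every lab food library, and 540, 4.32%, lay lower. The called features were more abundant than most, at percentiles 72.8 to 93.2 of the mean level over the tested features. 6 of the 7 averaged 50 to 500 CPM over the 18 libraries, a class that held 2159 of the 12514 tested features. The seventh was at 30.5 CPM, where the median tested feature was at 8.99 CPM. CPM is not divided by transcript length, which the table does not give, so these classes are not levels per molecule.

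The feature with the smallest p among those not called had a larger change than any called feature. It was at 1688, 1035 and 1953 CPM in C-M, C-7 and C-9 on saguaro, against 48.6, 57.7 and 28.5 CPM on lab food. Saguaro exceeded lab food in each strain by log2 differences of 5.12, 4.16 and 6.09. The fitted log2 fold change was 5.12 with an SE of 0.88, and the adjusted p of 0.0593 (edgeR) missed the threshold. In the fit with strain as a replicate block, the single called feature was another abundant one. It was at 164, 218 and 914 CPM in C-M, C-7 and C-9 on saguaro, against 1232, 1597 and 5605 CPM on lab food. C-9 was the highest strain on both foods, and the log2 differences were alike, at -2.90, -2.87 and -2.62. The blocked log2 fold change was -2.79 (adjusted p = 0.0318, edgeR), whereas without the block it was -2.70 (SE 0.77, adjusted p = 0.444, edgeR).

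6 features had 0 counts in all 3 saguaro libraries and at least 10 in every lab food library, and none had the opposite pattern. The opposite pattern needs at least 10 counts in C-M saguaro, the library with the fewest detected features. These counts were not made without C-M, so the imbalance may rest on that library. The most abundant of the 6 had 38, 195 and 59 counts in the C-M, C-7 and C-9 lab food libraries and was at least 76.2-fold lower on saguaro, against a floor of 3 counts over the 3 saguaro libraries. The other 5 were at least 21.3-fold to 42.9-fold lower against the same floor. C-7 held the most counts on lab food for each of the 6. None was called (adjusted p between 0.229 and 0.564, edgeR). In the 3 prickly pear libraries of Santa Catalina larvae they had at most 1 count, so this pattern was not limited to saguaro. In the Sonoran lab food libraries they had 0 to 231 counts, fewest in T-28, and on saguaro at most 1. The floor covers counting error only, since reads that carry no molecular identifier cannot be counted as separate molecules.

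The 3 strains differed in how much of the transcriptome moved. A feature is counted here as past 2-fold when its log2 CPM, with a prior count of 2, differed between the saguaro and lab food libraries of a strain by more than 1. In C-M, 954 features were past 2-fold higher on saguaro and 3575 lower, which is 7.62% and 28.6% of those tested. In C-7 the numbers were 261 higher (2.09%) and 419 lower (3.35%), and in C-9 433 higher (3.46%) and 554 lower (4.43%). The SD of the log2 differences over features was 1.72 in C-M, 0.55 in C-7 and 0.60 in C-9. Past 4-fold lower were 2252 features in C-M, 77 in C-7 and 84 in C-9. In the share past 2-fold in either direction the Sonoran strains lay between C-M and the other Santa Catalina strains. Past 2-fold higher and lower were 1566 and 911 features in T-22 (12.5% and 7.28%), 1777 and 481 in T-27 (14.2% and 3.84%) and 2103 and 1470 in T-28 (16.8% and 11.7%). In each Sonoran strain more features were higher than lower, in each Santa Catalina strain more were lower. With 1 library per strain and food, a difference between strains in the response to food could not be tested, and in pooled larvae a smaller number of cells of a type and less RNA per cell cannot be told apart.

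The distances between libraries show the same order. The SD of the log2 differences between C-7 saguaro and C-7 lab food, 0.55, was smaller than that between C-7 and C-9 on lab food, 0.97, and likewise C-9 saguaro stood nearer to C-9 lab food, at 0.60, than to C-7 saguaro, at 1.02. For C-7 and C-9 the libraries of a strain on both foods were therefore nearer than the libraries of both strains on a food. Each is 1 library, so strain and pool cannot be told apart here. C-M saguaro was far from every library, at 1.55 and 1.26 from the saguaro libraries of C-7 and C-9 and at 1.72, 1.68 and 1.27 from the lab food libraries of C-M, C-7 and C-9. C-M and C-7 were close on lab food, at 0.59. On the first principal component of the 6 libraries, which held 67.0% of the variance, C-M saguaro lay at -135, C-7 saguaro at 45.3 and C-9 saguaro at -27.3, against 65.9, 64.2 and -12.7 for the lab food libraries of C-M, C-7 and C-9. The foods overlapped on this axis, which separated C-M saguaro from the rest.

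**Figure D3:**
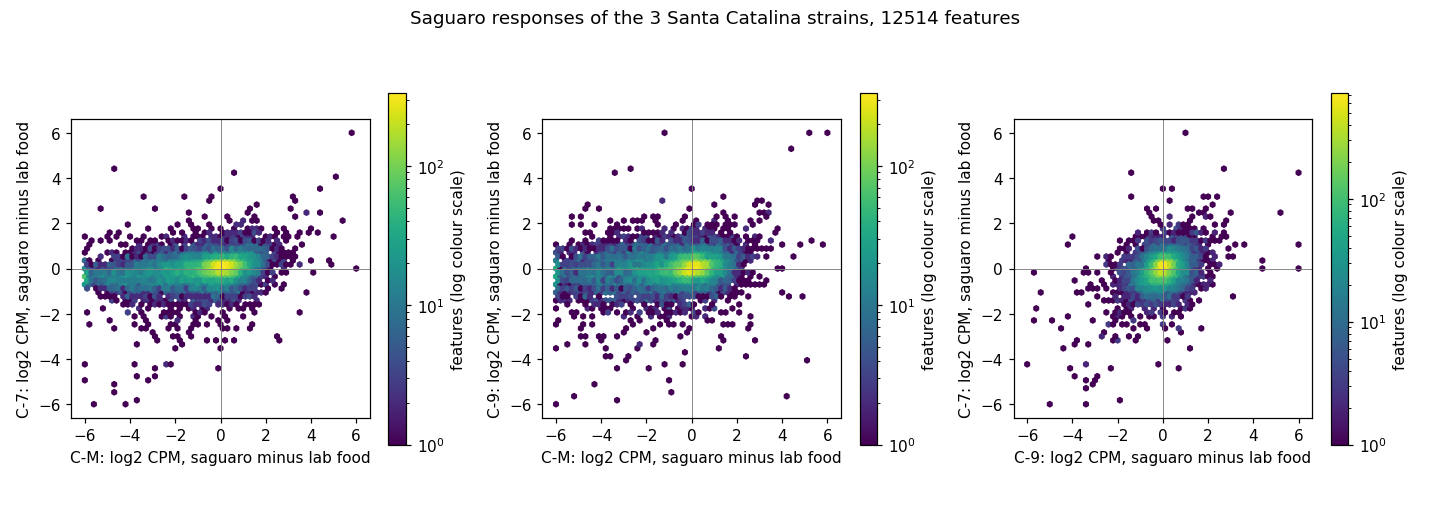
Log2 difference in CPM, saguaro minus lab food, of the 12514 tested features in pairs of Santa Catalina strains. Colour gives the number of features per hexagon on a log scale, and values beyond 6 are drawn at 6. The C-M response spreads to the left, with an SD of 1.72, while C-7 and C-9, with SDs of 0.55 and 0.60, cluster around 0.

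The responses of the 3 strains were weakly alike across features. The correlation of the log2 differences over 12514 features was 0.298 between C-M and C-7, 0.183 between C-M and C-9, and 0.349 between C-7 and C-9. The strains share no library, but share the scaling and the features, and features are not independent replicates. In the Sonoran strains the same correlations were 0.503 for T-22 with T-27, 0.627 for T-22 with T-28 and 0.474 for T-27 with T-28. Each of the 3 Santa Catalina values was thus lower than each of the 3 Sonoran ones. The sign of the difference was the same in all 3 Santa Catalina strains for 4645 features, or 37.1%.

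The falls in C-M lay mostly in scarce transcripts. Of the 4907 features averaging under 5 CPM, 2513 were past 2-fold lower in C-M, which is 51.2%, while 298 were in C-7 (6.07%) and 372 in C-9 (7.58%). The median log2 difference of this class was -1.12 in C-M, -0.15 in C-7 and 0.01 in C-9. In features of 50 to 500 CPM the medians were 0.29, 0.09 and 0.02 in the same order of strains, so the C-M balance was reversed in that class. In the class at 500 CPM or more, of 265 features, 53 were past 2-fold higher and 29 lower in C-M. The median of the scarce class was above 0 in each Sonoran strain, at 0.27 in T-22, 0.34 in T-27 and 0.49 in T-28.

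**Figure D4:**
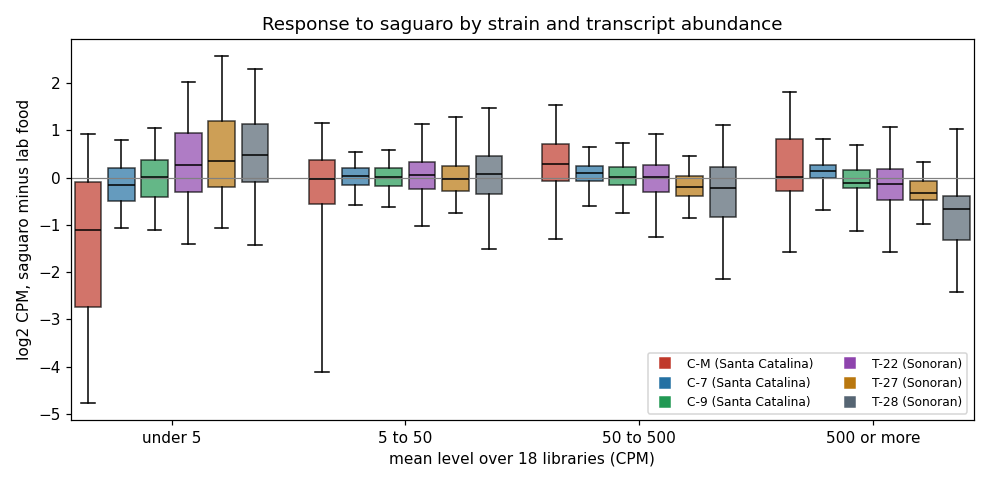
Log2 difference in CPM, saguaro minus lab food, by strain, in 4 classes of mean level over the 18 libraries. Boxes span the quartiles over features with the median as a line, and whiskers the 5th to the 95th percentile. In the class under 5 CPM, C-M has a median of -1.12 and the other Santa Catalina strains -0.15 and 0.01, while the 3 Sonoran strains lie above 0.

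The 3575 features past 2-fold lower in C-M were chosen on the C-M libraries, so their levels there only describe the choice. They made up 2.65% of the counts of C-M saguaro and 12.7% of those of C-M lab food. The remaining 16 libraries were not used in the choice. In them the median log2 CPM of these features was between 0.19 and 1.78, where it was -1.95 in C-M saguaro and 1.66 in C-M lab food. In C-7 and C-9 the same features had median log2 differences of -0.22 and -0.12, against 0.01 for all features in both strains, and 6.52% and 10.1% of them were past 2-fold lower, against 3.35% and 4.43% of all features. Most of them were scarce, 2513 of 3575 being under 5 CPM. Within that class the medians were -0.25 in C-7 and -0.04 in C-9, with 7.48% and 10.9% past 2-fold lower, against -0.05 and 0.04, with 4.59% and 4.14%, in the other 2394 scarce features. 327 features had 0 counts in C-M saguaro and at least 10 in each of the other 5 saguaro and lab food libraries, whereas each of those 5 had 0 or 1 such feature.

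A small group moved past 2-fold the same way in all 3 strains: 39 features higher on saguaro, 0.312% of those tested, and 75 lower, 0.599%. Scaled by library totals alone the split was 18 higher and 96 lower. They included 4 of the 7 called features, 3 that rose and 1 that fell. Their median log2 differences were 1.63, 1.60 and 1.47 for the higher group in C-M, C-7 and C-9, and -2.93, -2.10 and -2.02 for the lower group. In C-7 and C-9 alone, without the C-M libraries, 82 features were past 2-fold higher in both and 118 lower. Of the 39, 34 had an unadjusted p under 0.05, as had 62 of the 75, and these follow from the choice. The lower group was scarce, with 46 of its 75 features under 5 CPM and a median of 1.84 CPM, while the higher group had 14 of 39 under 5 CPM and a median of 12.8 CPM.

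The Sonoran libraries took no part in choosing these features. Of the 39 features of the higher group, 18 were higher on saguaro in all 3 Sonoran strains (46.2%, against 27.3% of all features) and 6 were lower in all 3. Of the 75 features of the lower group, 35 were lower in all 3 Sonoran strains (46.7%, against 19.5% of all features) and 20 were higher in all 3. The medians in T-22, T-27 and T-28 were 0.94, 0.75 and -0.08 for the higher group and -0.60, -0.64 and -0.68 for the lower group, against 0.09, 0.01 and 0.14 for all features. The lower group thus lay below all features in each Sonoran strain, and the higher group above them in T-22 and T-27 but not in T-28. Chosen on C-7 and C-9 alone, 24 of the 82 higher features were higher in all 3 Sonoran strains (29.3%) and 61 of the 118 lower ones were lower (51.7%). Without C-M the higher group was thus near the share of all features, and the lower group was not.

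No feature passed the test for a difference between the populations in the response to saguaro: 0 of 12514 were called, 0%, with 2300 at an unadjusted p under 0.05 (edgeR), 720 higher in Santa Catalina and 1580 lower, while DESeq2 called 377. Without the C-M saguaro library there were 0 calls and 2204 features at an unadjusted p under 0.05 (edgeR). Without the C-7 saguaro library there were 1699 calls, 258 higher and 1441 lower in Santa Catalina (edgeR). The 7 called features had log2 differences between the responses, Santa Catalina minus Sonoran, of -1.33 to 0.88, and adjusted p between 0.201 and 0.868 (edgeR). In Sonoran larvae comp34213_c0 was at 187, 149 and 165 CPM in T-22, T-27 and T-28 on saguaro, against 17.5, 26.8 and 11.3 CPM on lab food. The log2 fold change there was 3.18 (SE 0.45, adjusted p = 0.0218, edgeR), and the difference from Santa Catalina was -0.23 (SE 0.59, adjusted p = 0.868, edgeR). In that comparison 3 features were called, all higher (0.0240%). They were comp34213_c0, comp34213_c1 and the second unnamed feature, all among the 7 Santa Catalina calls. The populations share no library, but both comparisons came from the same fit and share its estimate of each feature's spread. The calls are thus not independent, and the comp34213 features may not be separate results, as said above. With strain as a replicate block the Sonoran comparison had 7 calls, 2 higher and 5 lower, and both comp34213 features were lost from it (adjusted p = 0.0590, edgeR), while the second unnamed feature stayed (adjusted p = 0.0385, edgeR). comp39042_c0 was at 58.3, 76.9 and 49.4 CPM on saguaro in those strains, against 80.1, 78.8 and 86.7 CPM on lab food. Its log2 fold change, -0.41 with an SE of 0.16 (adjusted p = 0.235, edgeR), was smaller in size than in Santa Catalina, by a difference of -0.72 (SE 0.23, adjusted p = 0.201, edgeR), which was not called.

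Among features whose sign was shared within each population, the populations were opposite more often than alike. 1554 features, 12.4% of those tested, had all 3 Santa Catalina strains on one side of 0 and all 3 Sonoran strains on the other, while 847, 6.77%, had all 6 strains on the same side. With C-M left out the counts were 1987 (15.9%) and 1447 (11.6%). Over all features, C-M had the sign of T-22, T-27 and T-28 in 47.1%, 42.0% and 41.4%. The shares were 50.3%, 43.9% and 46.7% for C-7, and 49.0%, 52.3% and 44.9% for C-9. The sign counts were not made under another scaling. Across features the C-M differences correlated at -0.283, -0.535 and -0.315 with those of T-22, T-27 and T-28. The values for C-7 were 0.064, -0.048 and -0.036, and for C-9 0.020, 0.065 and -0.151, so a correlation below -0.151 was seen for C-M alone. All strains share the scaling. The 783 features (6.26%) that were past 2-fold higher on saguaro in all 3 Sonoran strains, chosen without the Santa Catalina libraries, had median log2 differences of -4.38 in C-M, -0.40 in C-7 and -0.27 in C-9. In C-M 742 of them (94.8%) were past 2-fold lower, in C-7 56 (7.15%) and in C-9 104 (13.3%), against 28.6%, 3.35% and 4.43% of all features. Of the 783, 576 were under 5 CPM. In that class 51.2%, 6.07% and 7.58% of all features were past 2-fold lower in C-M, C-7 and C-9, so the C-7 share was near that of scarce features. Their median log2 CPM was -2.73, 1.56 and -0.59 in the saguaro libraries of C-M, C-7 and C-9, against 2.00, 1.95 and -0.27 in the lab food libraries of those strains. On prickly pear it was 2.50, 2.40 and 2.19 in the same strains. C-M and C-7 on lab food were thus higher in these features than Sonoran larvae on saguaro, where the medians were 1.10, 1.75 and 0.99, and C-9 on both foods was nearer to Sonoran larvae on lab food, at -0.73, -0.53 and -0.97 in T-22, T-27 and T-28. Among the Santa Catalina libraries the level of this group thus differed within saguaro and within lab food, and was alike on prickly pear. With 1 library per strain and food, strain and pool cannot be told apart.

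**Figure D5:**
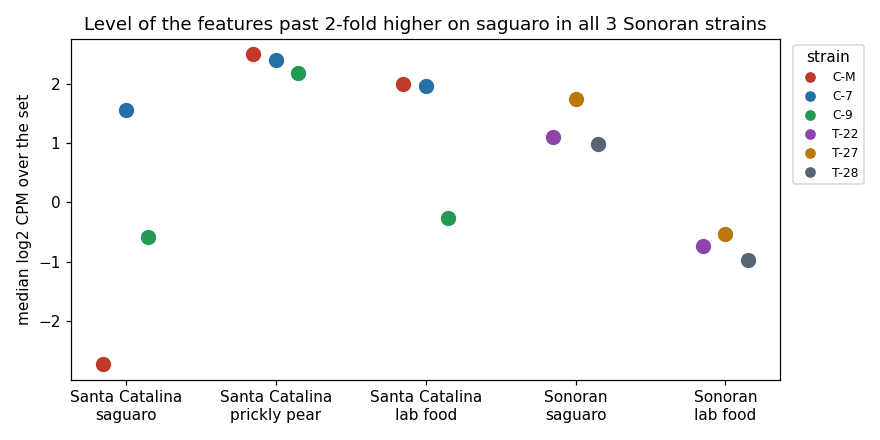
Median log2 CPM of the 783 features that were past 2-fold higher on saguaro in all 3 Sonoran strains. Each point is 1 library, coloured by strain. The Sonoran points were used to choose the features, the Santa Catalina points were not. C-M on saguaro lies at -2.73, below every other library, and C-M on lab food at 2.00.

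The 113 features (0.903%) past 2-fold lower on saguaro in all 3 Sonoran strains had medians below 0 in each Santa Catalina strain too. The median log2 differences were -1.001 in C-M, -0.59 in C-7 and -0.61 in C-9. Past 2-fold lower were 57 in C-M (50.4%), 41 in C-7 (36.3%) and 47 in C-9 (41.6%), against 28.6%, 3.35% and 4.43% of all features. In 19 of the 113 (16.8%) all 3 Santa Catalina strains were past 2-fold lower, against 0.599% of all features. The shift was thus present in C-7 and C-9, without C-M.

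Transcripts called on prickly pear in Sonoran larvae had medians of the opposite sign in Santa Catalina larvae on saguaro. The 1821 features called higher on prickly pear in Sonoran larvae (14.6% of those tested) had median log2 differences on saguaro of -1.17 in C-M, -0.06 in C-7 and -0.11 in C-9. The 1797 called lower there (14.4%) had medians of 0.24, 0.05 and 0.13. Each sign was the opposite of the prickly pear response, but the C-7 and C-9 medians were close to 0, and the median of all features was -0.17 in C-M and 0.01 in each of C-7 and C-9. The lists compare Sonoran libraries only, but their calls came from the fit on all 18 libraries. The Santa Catalina libraries thus entered the filter, the scaling and the estimate of each feature's spread. The lists are therefore not independent of the Santa Catalina values. They differed in abundance: 932 of the 1821 were under 5 CPM, whereas of the 1797, 727 were at 5 to 50 CPM and 709 at 50 to 500 CPM. All features under 5 CPM had medians of -1.12, -0.15 and 0.01 in C-M, C-7 and C-9. The medians were -0.04, 0.04 and 0.01 at 5 to 50 CPM, and 0.29, 0.09 and 0.02 at 50 to 500 CPM. The part of abundance in the medians of the lists was not tested.

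Larvae of the same strains on prickly pear were set beside those on saguaro for the 7 called features. All 5 rising features were also higher on saguaro than on prickly pear in Santa Catalina larvae, with log2 fold changes of 0.85 to 2.17 (adjusted p between 0.0374 and 0.0398, edgeR), where 6.38% of all features were called higher on saguaro and 8.13% in either direction. The 5 were chosen on the same saguaro libraries, so these calls are not separate from the choice. Scaled by library totals alone, 370 features were called higher and 5948 lower in that comparison, where TMM scaling gave 798 and 219. It had 0 calls without the C-M or the C-9 saguaro library, or without the C-M or the C-9 prickly pear library (edgeR; 3059 to 3531 features at an unadjusted p under 0.05), 4276 without C-7 saguaro and 1568 without C-7 prickly pear. With strain as a replicate block none of the 12514 features was called in that comparison, and the 5 had an adjusted p of 0.0693 (edgeR). comp34213_c0 was at 412, 188 and 259 CPM on saguaro in C-M, C-7 and C-9, against 69.5, 91.0 and 30.9 CPM on prickly pear. For the 2 falling features the libraries on both cacti overlapped: comp37436_c0 was at 20.6, 45.9 and 36.1 CPM on saguaro against 41.2, 43.5 and 41.0 CPM on prickly pear, and comp39042_c0 at 52.9, 58.0 and 55.3 CPM against 56.3, 58.3 and 50.8 CPM. The log2 difference between the cacti was -0.29 (SE 0.44, adjusted p = 0.651, edgeR) for comp37436_c0 and 0.01 (SE 0.16, adjusted p = 0.980, edgeR) for comp39042_c0. Prickly pear against lab food, which shares the lab food libraries with the saguaro comparison, gave log2 fold changes of -2.68 and -1.15 for these 2 features (adjusted p = 0.0385 and 0.0219, edgeR). With strain as a replicate block comp37436_c0 lost that call (adjusted p = 0.0591, edgeR) and comp39042_c0 kept it (adjusted p = 0.0274, edgeR). That comparison called 0.00799% of all features higher and 0.416% lower, 0.424% in all.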

How the data were processed

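RNA was sequenced from pools of whole larvae. Per the series' design text, the authors assembled the reads de novo (it names a Trinity assembly) and their program merged the sequences of each assembled gene; the deposited values are whole-number counts, with totals of 6769906 to 16115982 per library. The submitters' processing notes name edgeR, with no version. For the aligner, the counting program and any filter, no source used here gives a name. The table holds 15947 features in 12153 components.

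The tests used edgeR 4.0.16 under R 4.3.3: filterByExpr on the 6 groups left 12514 features, TMM factors scaled the libraries, and a model of 6 group means on all 18 libraries (12 residual degrees of freedom) was tested by quasi-likelihood F contrasts with Benjamini-Hochberg adjustment. The code was also run on simulated counts. These held no strain effects and no library set apart, so that run does not show how the model handles either. SEs were derived from the F statistic, as the absolute log2 fold change over the root of F. Strain differences used log2 CPM with a prior count of 2, unless stated otherwise.

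Strains pair the foods by the labels, since each strain was reared on every food. As a check, deviations from group means in the saguaro and lab food libraries correlated at -0.325 in C-M, 0.617 in C-7 and 0.362 in C-9. The strain block was an alternative, with DESeq2 1.42.0 as another. No replicate repeated another: chi-square over its degrees of freedom was at least 80.6.

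Among called features, those named are the 2 that rose and the 2 that fell most, given a mean of at least 5 CPM in the higher group and no overlap between the foods. Other called features are described without names. The features singled out otherwise were chosen after their values were seen. The comparison, the lists and the rules were chosen with earlier results of these data known.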

Additional observations from a re-analysis of the deposited data

Results flagged for a closer look

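3 results had every Santa Catalina strain on one side and every Sonoran strain on the other, and these differences were not tested. They were picked for this pattern from a longer list of results given per strain, and the rest of that list lacked it. The rest held the called features, the abundance classes and the share of the 100 most abundant features. It also held the number of features with 10 or more counts before thinning, which in T-27 was 10257 on saguaro and 10440 on lab food. First, the number of features with 10 or more counts after thinning to equal totals was lower on saguaro than on lab food in each Santa Catalina strain, at 8174, 10131 and 9063 on saguaro against 10417, 10600 and 9191 on lab food in C-M, C-7 and C-9, and higher in each Sonoran strain, at 9792, 10257 and 10211 on saguaro against 9297, 9132 and 8943 on lab food in T-22, T-27 and T-28. The mean of saguaro minus lab food, Santa Catalina minus Sonoran, was -1909 features, and -1261 without C-M, chosen after seeing the data. The TMM factors of the full libraries differed, at 0.676, 0.957 and 0.757 on saguaro against 0.992, 1.07 and 0.779 on lab food in C-M, C-7 and C-9, and their part in this was not tested. C-M moved the most of the Santa Catalina strains, and C-9 the least.

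Second, the features called higher on prickly pear in Sonoran larvae had median log2 differences on saguaro of -1.17, -0.06 and -0.11 in C-M, C-7 and C-9, and of 0.89, 0.65 and 1.20 in T-22, T-27 and T-28. The means of the strains differed by -1.36. Finally, the features called lower there had medians of 0.24, 0.05 and 0.13 in C-M, C-7 and C-9, and of -0.40, -0.36 and -1.06 in T-22, T-27 and T-28, a difference of means of 0.75. In Sonoran larvae the prickly pear and saguaro comparisons share the lab food libraries, so the signs of the Sonoran medians are not separate from the choice of the features. The values in C-7 and C-9 were close to 0. The lists also differed in abundance, as said above, and the part of abundance in these medians was not tested.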

How the results depend on the processing

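The direction of all 7 called features was the same under all 17 alternatives, but each lost its call in 11 to 15 of them. The count of 7 calls on saguaro against lab food became 0 with RLE size factors, 60 with DESeq2 (32 higher, 28 lower, all 7 among them), 1 with strain as a replicate block, and 0 with the 6 libraries alone, with or without the replicate block. Leaving out single libraries or strains gave 0 to 290 calls. The 0 calls for the difference between the populations became 377 with DESeq2, and 0 to 1699 with libraries or strains left out (741 without C-7 on all foods). The replicate block left that count at 0. Saguaro against prickly pear, with 1017 calls, had 0 with RLE size factors, with the replicate block, and with the 6 libraries alone with or without it, 6318 with library totals alone (370 higher, 5948 lower, turning the balance), 428 with no filter and 3021 with DESeq2. Leaving out single libraries gave 0 to 4276, and leaving out C-7 on all foods 4243. Features past 2-fold in all 3 strains numbered 114, and 200 to 458 over any 2 strains; library totals alone gave 18 higher and 96 lower, a prior count of 0.5 gave 43 and 117, and of 5 gave 32 and 51. Scaling by totals moved the median log2 fold change on saguaro against lab food from -0.04 to -0.28. The causes of these changes were not tested. With 2 of 3 libraries left in a group, their spread is pooled with that of the other groups. Thinning to the smallest library gave 8 calls, 6 of them among the 7, with 11450 features tested.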
